A study of Homo sapiens with 4 samples.

Results

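Messenger RNA levels of 33 genes of DNA replication and the G1/S transition were examined in the human melanoma cell lines A375 and SK-MEL-28. The genes were taken by name from the deposited expression table, which lists 18175 genes and loci, and each of the 33 names matched 1 row. The study holds 4 libraries in 4 groups, with 1 library per group: each line was given either siNC or siLINC01291. By its name siNC is the negative control siRNA, and siLINC01291 is directed at the long non-coding RNA LINC01291. All cells were grown in Dulbecco medium with fetal bovine serum, and the treatment label also names EL without saying what it is or which libraries received it. Within a line the siRNAs are compared without replicates, and the only repeat of the treatment is across the 2 lines, so p-values over both lines measure how far these 2 lines differ and the spread of all genes.

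Before a cell copies its DNA, the origin recognition complex (ORC1 and ORC6 are subunits), CDC6 and CDT1 load the ring-shaped helicase MCM2 to MCM7 onto chromatin, a step called licensing. Geminin (GMNN) binds CDT1 and blocks a second licensing in the same cycle, while MCM10, CDC45 and the GINS complex (GINS1 to GINS4) switch the loaded helicase on. DNA polymerase alpha with primase then starts new strands, the RFC complex loads the sliding clamp PCNA, and E2F factors with cyclin E drive transcription and the entry into S phase. Many of these genes are classical E2F targets and are high in proliferating tumour cells.

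Earlier work on these libraries found that 7-base words, CTATGAA and TCTATGA, were common in the 3' UTRs of genes that fell with siLINC01291. Of the 33 genes, 4 carried at least 1 of them in the 3' UTR of the principal transcript of GENCODE 29 (12.1%), against 1753 of 12152 searched genes of the table (14.4%). These 4 were GINS1, GMNN, GINS3 and MCM6. Their sites are shown because the 2 genes that fell are among them, with 24 bases of each transcript from 5′ to 3′ and the bases of the words in capitals. LINC01291 itself holds the joined word TCTATGAA in 3 annotated transcripts (chr2:74931483-74931506, + strand, GRCh38) and is given for comparison. SKP2, a gene outside the 33 described further on, is included with its first site.

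LINC01291: gtctggacTCTATGAAgaatcttc
GINS1, first site: tactttggTCTATGAcccgttttt
GINS1, second site: tcatgtgtTCTATGAAtaaagagt
GMNN: atttttaaTCTATGAtggtttatg
GINS3: gggtgctgaCTATGAAgggccctg
MCM6: atgaggttTCTATGAgaaggagtc
SKP2: gagggaaaaCTATGAAatcttgct

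On GRCh38 the GINS1 sites lie at chr20:25446993-25447016 and chr20:25448521-25448544 (+ strand), in a 3' UTR of 2564 bases. The second GINS1 site begins 27 bases before the annotated end and overlaps an AATAAA hexamer, the usual polyadenylation signal. The GMNN site lies at chr6:24785956-24785979 (+ strand) in a 3' UTR of 300 bases. GINS3 has its site at chr16:58405571-58405594 (+ strand), MCM6 at chr2:135840302-135840325 (- strand) and SKP2 at chr5:36182170-36182193 (+ strand). The words were chosen on log2 ratios of these same libraries, so their presence in a gene that fell is a description and not independent support. Which bases the siRNA targets was not analysed here.

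The libraries held between 29351240 and 31815336 counts, and the 33 genes had between 317 and 20132 counts each. LINC01291 went from 827 to 304 counts in A375 and from 998 to 454 in SK-MEL-28. Of 7 melanoma and melanocyte markers, all had an FPKM of at least 1 in SK-MEL-28, whereas MLANA, TYR and DCT were below 1 in both A375 libraries. Of 12 markers of fibroblasts, keratinocytes, immune and endothelial cells, 3 were listed in the table (LUM, PDGFRB and KRT14), and their summed FPKM was 10.96 and 12.9 in the A375 libraries and 7.89 and 8.10 in the SK-MEL-28 libraries (siNC, then siLINC01291). FPKM is the authors' count scaled to gene length and library size, the scale on which levels of different genes are compared below.

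The comparison over both lines asked which of these genes shifted with siLINC01291. Of the 33 genes, 2 fell, GINS1 and GMNN, 0 rose, and 31 did not pass the test (quasi-likelihood test of edgeR, blocked on line, Benjamini-Hochberg adjusted p under 0.05 over 13501 genes). Among all genes tested 0.674% fell and 0.222% rose (0.896% in either direction), against 6.06% of these 33 that fell. Without the genes that hold a word, of 11953 genes tested 65 fell and 107 rose, against 91 and 30 with all 13501 genes. The words were chosen on log2 ratios of these libraries, so leaving out their carriers takes out genes that fell. The fit and the adjustment were redone on the smaller set, so the counts differ by more than the removed genes. At an unadjusted p under 0.05, 6 of the 33 passed in edgeR, near the 16.9% of all genes tested. DESeq2 called the same number of the 33, 2, and 302 of all genes, while limma on log2(FPKM + 1) called 0 of the 33 and 6 of all genes.

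GINS1, a subunit of the complex that holds CDC45 to the MCM helicase, fell most. Its FPKM was 19.95 with siNC and 8.49 with siLINC01291 in A375, and 10.6 and 3.82 in SK-MEL-28. Both siLINC01291 libraries lay below both siNC libraries. That left 41.2% of the siNC level in A375 (95% exact binomial interval 38.3 to 44.2%) and 35.3% in SK-MEL-28 (31.7 to 39.3%); such intervals cover counting error only. Over both lines GINS1 fell by 1.38 on the log2 scale (SE 0.11, edgeR adjusted p = 0.0130, lower in 2 of 2 lines). Ranked against genes that reached an FPKM of 5 in the line, it had the 17th lowest log2 ratio of 7419 in A375 and the 19th lowest of 7278 in SK-MEL-28. In bulk RNA, fewer cells in the phase that expresses a gene and less of its RNA per cell cannot be told apart.

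GMNN, the inhibitor of CDT1, had an FPKM of 25.2 with siNC and 12.2 with siLINC01291 in A375, and of 21.5 and 9.91 in SK-MEL-28. The siNC libraries of the lines lay close together, and so did their siLINC01291 libraries, without overlap. In A375 46.9% of the siNC level was left (interval 43.3 to 50.6%) and in SK-MEL-28 44.9% (41.1 to 49.1%). GMNN fell by 1.12 on the log2 scale over both lines (SE 0.10, edgeR adjusted p = 0.0133, lower in 2 of 2 lines). With limma on log2(FPKM + 1), which called neither gene, the adjusted p was 0.0531 for GINS1 and 0.0536 for GMNN.

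**Figure D1:**
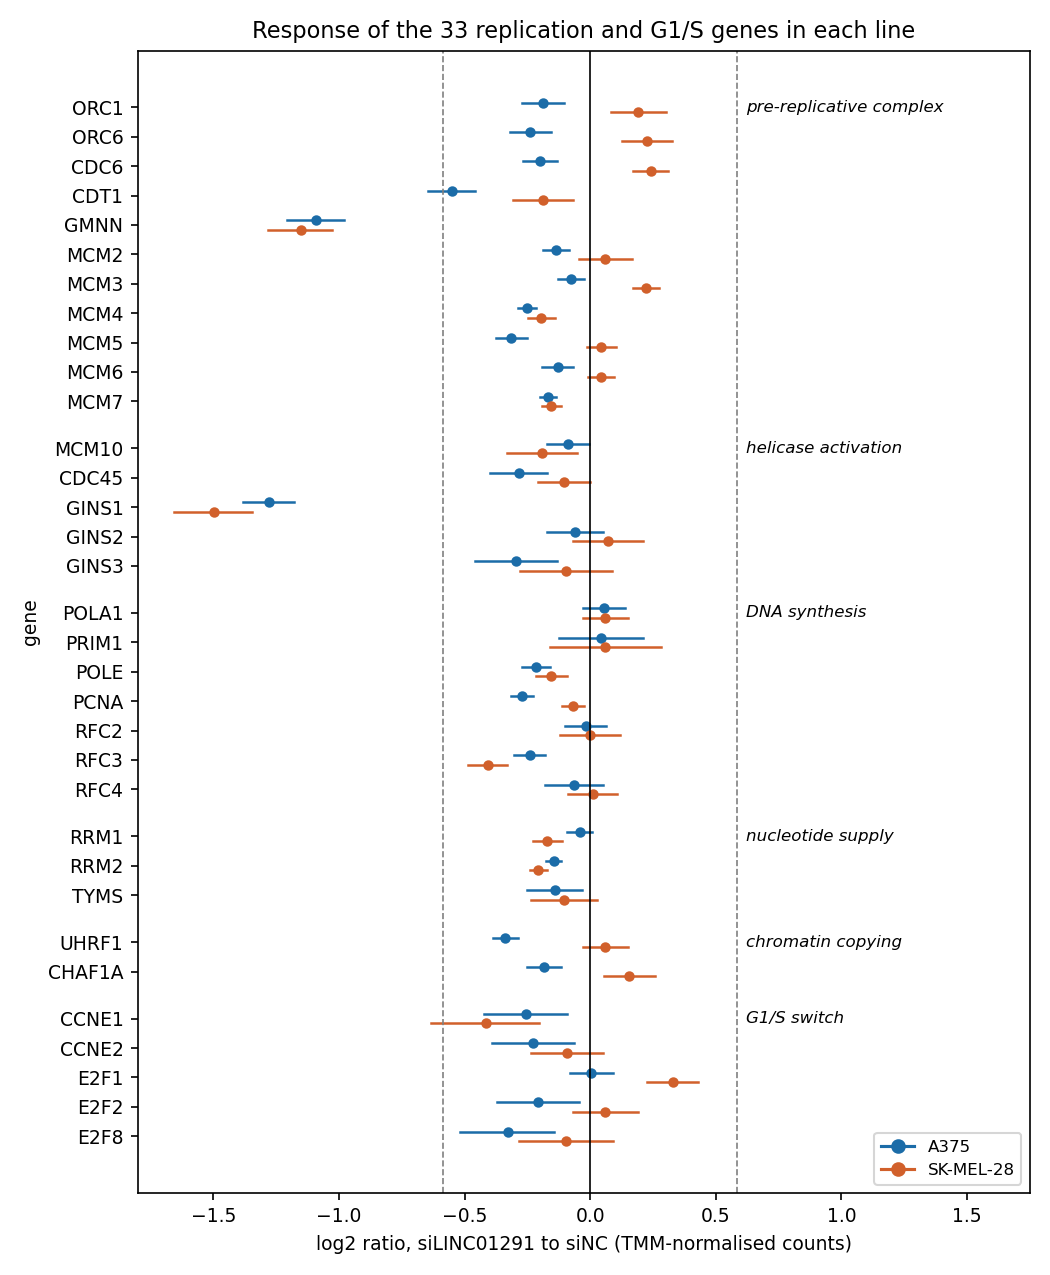
Log2 ratio of siLINC01291 to siNC of each of the 33 genes (horizontal axis, TMM-normalised counts) in A375 (blue) and SK-MEL-28 (orange), 1 pair of libraries per line, grouped by role. Bars are 95% exact binomial intervals of counting error, dashed lines mark 1.5-fold, and GINS1 and GMNN are the 2 genes beyond them in both lines.

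The partner of GMNN did not pass. CDT1, which brings the MCM helicase to origins, had an FPKM of 26.4 and 18.6 in A375 (siNC, then siLINC01291, as in all pairs below) and of 14.9 and 13.4 in SK-MEL-28. Its log2 ratio was -0.55 in A375, just inside 1.5-fold, and -0.19 in SK-MEL-28, and it did not pass over both lines (-0.37, SE 0.12, edgeR adjusted p = 0.203). The ratio of CDT1 to GMNN in FPKM was 1.05 and 1.52 in A375 and 0.692 and 1.35 in SK-MEL-28, so it was higher with siLINC01291 in both lines.

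The origin-binding factors differed in sign between the lines. ORC1 had an FPKM of 25.5 and 23.2 in A375 and of 13.6 and 15.95 in SK-MEL-28. ORC6 stood at 19.1 and 16.7 in A375 and at 11.7 and 14.0 in SK-MEL-28. For CDC6, the ATPase that joins them at origins, the values were 23.3 and 20.9 in A375 and 19.2 and 23.3 in SK-MEL-28. All 3 were thus lower in A375 and higher in SK-MEL-28 with siLINC01291, and their changes over both lines, all within 0.03 of 0 on the log2 scale, did not pass (edgeR adjusted p = 0.988, 0.997 and 0.940). With 1 library per line and siRNA, a difference between the lines leaves 0 residual degrees of freedom and was not tested.

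None of the 6 helicase subunits passed. MCM2, MCM3, MCM4, MCM5, MCM6 and MCM7 had log2 ratios of -0.14, -0.08, -0.25, -0.31, -0.13 and -0.17 in A375. In SK-MEL-28 they were 0.06, 0.22, -0.19, 0.04, 0.04 and -0.15. MCM4 and MCM7 were lower in both lines, and the other 4 had log2 ratios below 0 in A375 and above 0 in SK-MEL-28. Of these 4 only MCM3 had a counting interval above 1 in SK-MEL-28. For MCM2, MCM5 and MCM6 it held 1 there (97.0 to 112.2, 99.0 to 107.3 and 99.5 to 106.7% of the siNC level). MCM6, which carries TCTATGA, had an FPKM of 31.7 and 29.9 in A375 and of 50.7 and 53.6 in SK-MEL-28, with a change over both lines of -0.035 (SE 0.09, edgeR adjusted p = 0.888).

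Among the genes that switch the helicase on, GINS1 was the only call of 5. GINS2 had an FPKM of 13.1 and 12.95 in A375 and of 8.63 and 9.28 in SK-MEL-28. GINS3, which carries CTATGAA, had 4.197 and 3.53 in A375 and 3.35 and 3.21 in SK-MEL-28. GINS4, the remaining subunit and not among the 33, had 3.81 and 4.22 in A375 and 5.84 and 6.33 in SK-MEL-28. Over both lines GINS2 stood at 0.01 (SE 0.10), GINS3 at -0.19 (SE 0.12) and GINS4 at 0.10 (SE 0.10), with edgeR adjusted p of 0.976, 0.484 and 0.705. The FPKM of GINS1 was 2.84 times the mean of the other 3 subunits in A375 siNC and 1.23 times with siLINC01291, with 1.78 and 0.609 times in SK-MEL-28. CDC45, the helicase cofactor, stood at -0.19 (SE 0.10) and MCM10, which helps activate the loaded helicase, at -0.13 (SE 0.10), and neither passed (edgeR adjusted p = 0.417 and 0.561).

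**Figure D2:**
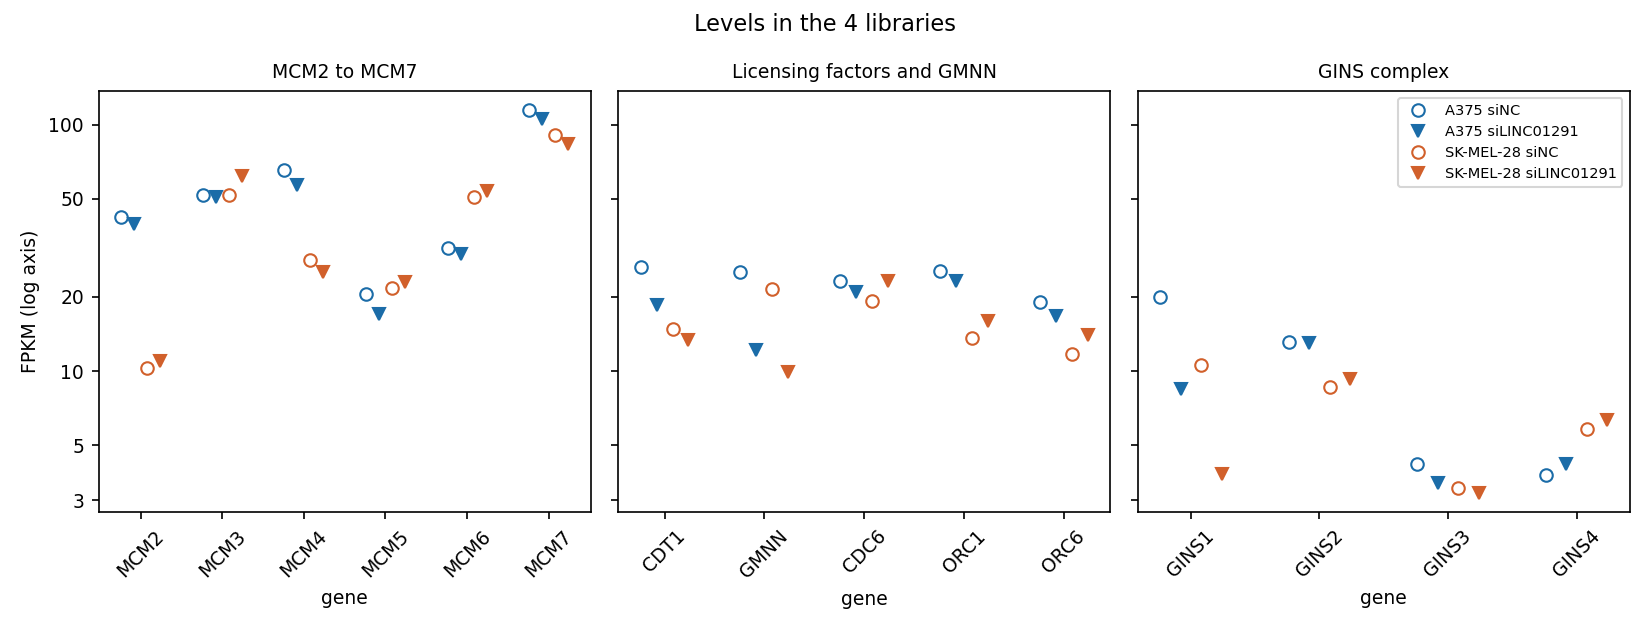
FPKM on a log axis in each of the 4 libraries for MCM2 to MCM7, for the licensing factors with GMNN, and for the GINS complex (circles siNC, triangles siLINC01291, blue A375, orange SK-MEL-28, 1 library per symbol). GINS1 and GMNN drop with siLINC01291 in both lines, from 19.95 to 8.49 and from 25.2 to 12.2 in A375.

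None of the 7 genes of DNA synthesis passed. RFC3, a clamp loader subunit, was lowest over both lines, with an FPKM of 48.3 and 42.3 in A375 and of 35.5 and 27.4 in SK-MEL-28. Over both lines RFC3 stood at -0.32 (SE 0.09, edgeR adjusted p = 0.174), the smallest adjusted p of the 31 genes that did not pass. Its partners RFC2 (33.8 and 34.5, then 16.9 and 17.3 FPKM) and RFC4 (12.9 and 12.8, then 18.9 and 19.5) did not pass (edgeR adjusted p = 0.997 and 0.947). PCNA, the most abundant of the 33 per length, had 200 and 171 FPKM in A375 and 207 and 202 in SK-MEL-28 (over both lines -0.16, SE 0.09, edgeR adjusted p = 0.410). POLE, the catalytic subunit of the leading-strand polymerase, stood at -0.18 over both lines (SE 0.08), POLA1, the catalytic subunit of polymerase alpha, at 0.07 (SE 0.09) and the primase subunit PRIM1 at 0.06 (SE 0.12), and none passed (edgeR adjusted p = 0.350, 0.776 and 0.858).

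Nucleotide supply and chromatin copying did not pass either. RRM1 and RRM2, which form ribonucleotide reductase, had joint log2 changes of -0.10 (SE 0.08) and -0.17 (SE 0.07), and thymidylate synthase TYMS of -0.12 (SE 0.10), with edgeR adjusted p of 0.622, 0.312 and 0.612. The 3 genes had log2 ratios below 0 in both lines, between -0.04 and -0.21. The counting interval held 1 for RRM1 in A375, where its FPKM was 46.2 and 46.4, and for TYMS in SK-MEL-28. UHRF1, which guides DNA methylation to new strands, had an FPKM of 44.3 and 36.3 in A375 and of 13.4 and 14.3 in SK-MEL-28. CHAF1A, a subunit of the chromatin assembly factor, had 27.4 and 24.95 in A375 and 11.4 and 13.04 in SK-MEL-28. Both were lower in A375 and higher in SK-MEL-28 (edgeR adjusted p over both lines 0.618 and 0.979). For UHRF1 in SK-MEL-28 the counting interval held 1 (98.15 to 110.9% of the siNC level).

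At the G1/S switch, cyclin E1 (CCNE1) had a counting interval below 1 in both lines, and the activator E2F1 had one above 1 in SK-MEL-28 alone. In A375 the E2F1 interval held 1 (94.5 to 106.4% of the siNC level). CCNE1 had an FPKM of 8.36 and 7.23 in A375 and of 5.71 and 4.38 in SK-MEL-28 (over both lines -0.33, SE 0.12, edgeR adjusted p = 0.261). E2F1 had 25.5 and 26.4 in A375 and 17.8 and 22.9 in SK-MEL-28, where its log2 ratio of 0.33 was the highest of the 33 (over both lines 0.17, SE 0.11, edgeR adjusted p = 0.495). Cyclin E2 (CCNE2), the activator E2F2 and the repressor E2F8 stood at -0.15, -0.06 and -0.20 over both lines, and none passed (edgeR adjusted p = 0.548, 0.845 and 0.475).

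Within A375, with no test, 2 of the 33 genes (GINS1 and GMNN) were at least 1.5-fold lower and 0 were at least 1.5-fold higher, against 3.94% lower and 3.95% higher of 13244 genes expressed there (FPKM of 1 or more). Of the 33, 30 had a log2 ratio below 0 (51.3% of all expressed genes), with a median of -0.20 against -0.01 for all. Without GINS1 and GMNN the median was -0.19. Under the deposited CPM, which scale to the whole library, 28 of 33 lay below 0 with a median of -0.15 against 0.04 for all. The counting interval lay below 1 for 26 of the 33 and above 1 for 0 (25.8 and 22.8% of all genes).

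In SK-MEL-28 GINS1 and GMNN were again the 2 genes at least 1.5-fold lower and 0 were higher, against 5.08% lower and 6.32% higher of 12336 genes. Here 18 of 33 lay below 0 (49.1% of all genes) with a median of -0.07, and of 0.00 for all. Without GINS1 and GMNN the median was -0.0001. The interval lay below 1 for 13 of the 33 and above 1 for 6 (27.2 and 26.7% of all genes). In both lines together, 18 of the 33 were below 0 in each, 3 above 0 in each and 12 opposite in sign. Of 10988 genes expressed in both lines these shares were 33.8% below, 30.9% above and 35.3% opposite, so the opposite share of the 33 was near the background. In 5 of the 33 (ORC1, ORC6, CDC6, MCM3 and CHAF1A) the counting interval lay below 1 in A375 and above 1 in SK-MEL-28, against 3.32% of these genes, with 6.98% on opposite sides in either direction. For the 31 genes that did not pass, changes over both lines ran from -0.37 to 0.17 with SE between 0.07 and 0.13, so shifts of that size are not told apart from none in this design.

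Other lists were set beside the 33 genes; they were written with earlier results known and are described by counts. Of 49 further replication genes 48 were tested, and 2 fell, DSCC1 and SKP2, and 0 rose. DSCC1, a subunit of an alternative clamp loader, had an FPKM of 22.1 and 12.3 in A375 and of 11.6 and 4.95 in SK-MEL-28 (over both lines -1.06, SE 0.13, edgeR adjusted p = 0.0317). SKP2, the substrate receptor of a ubiquitin ligase that marks p27 and CDT1 for degradation, had 8.65 and 5.37 in A375 and 3.16 and 1.30 in SK-MEL-28 (over both lines -1.01, SE 0.15, edgeR adjusted p = 0.0480). Both carry the words, DSCC1 at 1 site and SKP2 at 3, as do MCMBP and HELLS, which did not pass (-0.30 and -0.23, edgeR adjusted p = 0.157 and 0.320). Neither call was kept by edgeR's bias-adjusted quasi-likelihood test (adjusted p = 0.0503 and 0.0683) nor by edgeR at an FPKM of at least 5 (adjusted p = 0.0600 and 0.0845), and SKP2 was also lost with DESeq2's size factors in edgeR (adjusted p = 0.0524). CLSPN was also among the lowest of this list (-0.28), and POLD4 (0.59), TIPIN (0.17) and POLE4 (0.16) were among the highest, none of which passed. POLD4 was weakly expressed, with 76 and 127 counts in A375 and 74 and 108 in SK-MEL-28. Its FPKM was 0.8034 and 1.303 in A375 and 0.8219 and 1.202 in SK-MEL-28. POLD4 thus met the filter, an FPKM of 1 in 2 or more libraries, only through its siLINC01291 libraries.

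Of 25 G1 regulators 24 were tested and 0 passed, with 8 of the 24 at an unadjusted p under 0.05 in edgeR (16.9% of all genes). DESeq2 and edgeR with no filter on low values each called 2, CDK2 higher (adjusted p = 0.0106 and 0.0396) and E2F4 lower (adjusted p = 0.0254 and 0.0358), and edgeR without word genes called E2F4 (adjusted p = 0.0454). CDK2, the partner of cyclin E, was closest, with an FPKM of 24.1 and 33.9 in A375 and of 66.4 and 90.8 in SK-MEL-28 (0.44, SE 0.08, edgeR adjusted p = 0.0768). The CDK inhibitor CDKN1C (0.79), CDK6 (0.39) and the pocket protein RBL2 (0.39) were also among the highest, and E2F4 (-0.48), E2F3 (-0.40), RBL1 (-0.30) and CDKN1A (-0.25) the lowest. CDKN1C had a log2 ratio of 1.05 in A375, but in SK-MEL-28 it had 46 and 57 counts and its counting interval held 1. CDKN1A stood at -0.02 in A375, where its interval held 1, and at -0.53 in SK-MEL-28. For CDK6, RBL2, E2F4, E2F3 and RBL1 the intervals lay on the same side of 1 in both lines. Of 23 G1 regulators searched for the words, 2 carry them, E2F3 and RBL1. Mitotic genes separated from the replication genes in SK-MEL-28. There the median of 26 expressed mitosis genes was -0.55 and 12 of them were at least 1.5-fold lower, against a median of -0.07 and 2 of 33 for the replication and G1/S genes. In A375 the medians were -0.15 and -0.20. AURKA (-0.59), CCNA2 (-0.56), KIF20A (-0.49) and PLK1 (-0.46) were the lowest mitosis genes over both lines and INCENP (0.10) and BIRC5 (0.07) the highest, but of 26 tested 0 passed in edgeR (16 at an unadjusted p under 0.05, against 16.9% of all genes). DESeq2 called 2, AURKA and CDC20, lower, and edgeR with no filter on low values called 1, AURKA, lower. The difference between these lists was not tested.

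**Figure D3:**
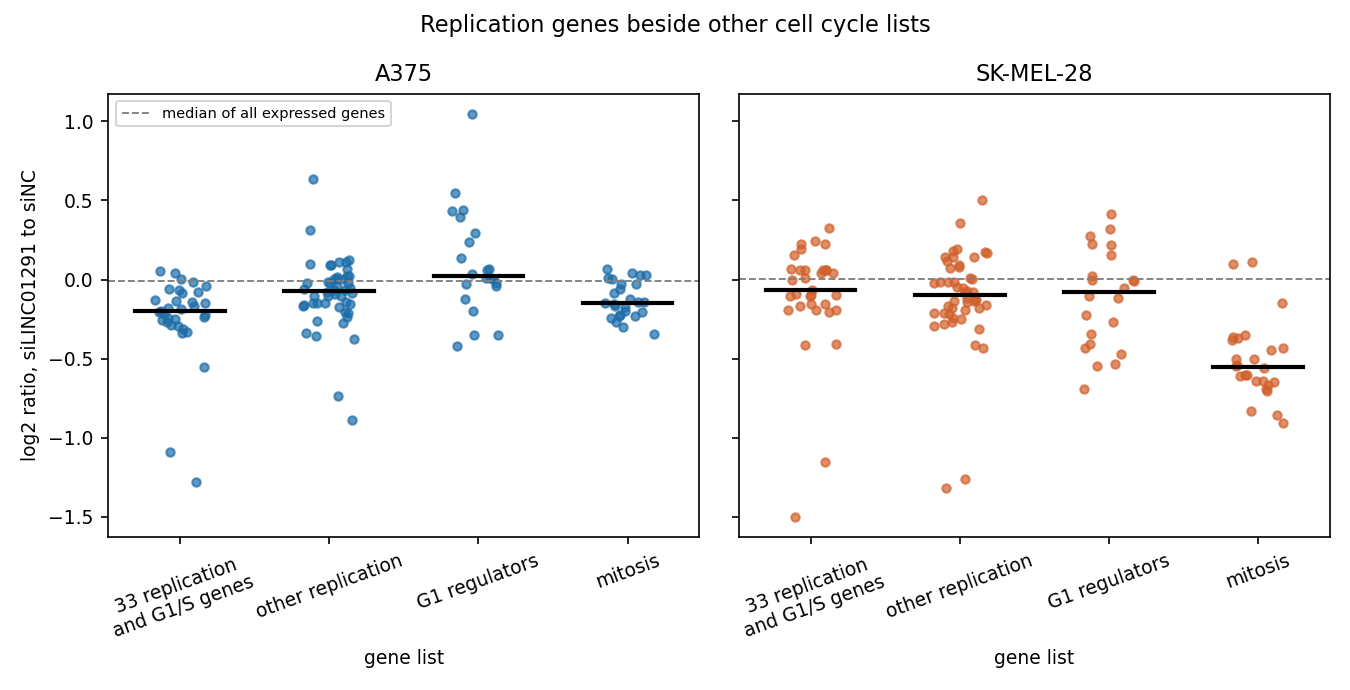
Log2 ratio of siLINC01291 to siNC of each expressed gene (points) in A375 and SK-MEL-28, 1 pair of libraries per line, for the 33 replication and G1/S genes and for 3 other lists. Black bars are list medians and the dashed line is the median of all expressed genes. In SK-MEL-28 the mitosis median lies at -0.55 and that of the 33 genes at -0.07.

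The same model compared SK-MEL-28 with A375 across both siRNAs, to describe how the 33 genes differ between the lines. In SK-MEL-28 15 of the 33 were lower and 8 higher, in all 69.7%, against 36.3% lower, 36.1% higher and 72.4% in all of the 13501 genes tested, so the share of genes that differed was near the background. DESeq2 called 11 of the 33 lower and 8 higher, and 3821 lower and 4080 higher of all 13501 genes. Limma on log2(FPKM + 1) called 19 of the 33 lower and 5 higher, and 5827 lower and 4091 higher of all 13501. This limma fit leaves out the TMM scaling and lies lower by 0.15 at the median of all genes.

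The helicase subunits differed in opposite directions between the lines. MCM2 had an FPKM of 42.1 and 39.5 in A375 and of 10.3 and 11.01 in SK-MEL-28, 3.41-fold lower (log2 -1.77, SE 0.10, edgeR adjusted p = 1.21e-05). MCM4 was 2.04-fold lower (65.6 and 56.9, then 28.3 and 25.3 FPKM, edgeR adjusted p = 4.92e-05). MCM6 was 1.90-fold higher in SK-MEL-28 (log2 0.92, SE 0.09, edgeR adjusted p = 0.000145). MCM5 and MCM3 were also higher by edgeR (0.43 and 0.30, adjusted p = 0.0117 and 0.0322), calls that limma on FPKM did not make. MCM7 did not pass (-0.17, edgeR adjusted p = 0.0734). Per length, MCM7 was the most abundant of the 6 in all 4 libraries, at 5.61 and 6.21 times the lowest subunit, MCM5, in A375 and 8.83 and 7.60 times the lowest, MCM2, in SK-MEL-28. FPKM uses a single length per gene, so these ratios rest on the authors' gene models.

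Other members that were lower in SK-MEL-28 were UHRF1 (2.58-fold), MCM10 (2.34-fold), CHAF1A (1.91-fold), GINS1 (1.82-fold) and RFC2 (1.78-fold), with edgeR adjusted p between 6.24e-05 and 0.000457. The remaining lower calls, ORC1, CDT1, GINS2, PRIM1, RFC3, RRM2, TYMS and CCNE1, lay between 1.196-fold and 1.47-fold (edgeR adjusted p between 0.00559 and 0.0351). Higher, beside the MCM genes, were E2F2 (1.93-fold), RFC4 (1.68-fold), CCNE2 (1.52-fold), CDC45 (1.39-fold) and PCNA (1.24-fold), with edgeR adjusted p between 0.000468 and 0.0167. The cyclin E genes thus ranked differently in the lines: per length CCNE2 was 0.569 and 0.581 times CCNE1 in A375 and 1.09 and 1.36 times in SK-MEL-28. GMNN did not pass between the lines (-0.10, SE 0.10, edgeR adjusted p = 0.403), nor did RRM1, POLA1, POLE, GINS3, CDC6, E2F1, E2F8 or ORC6 (adjusted p between 0.0664 and 0.995).

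**Figure D4:**
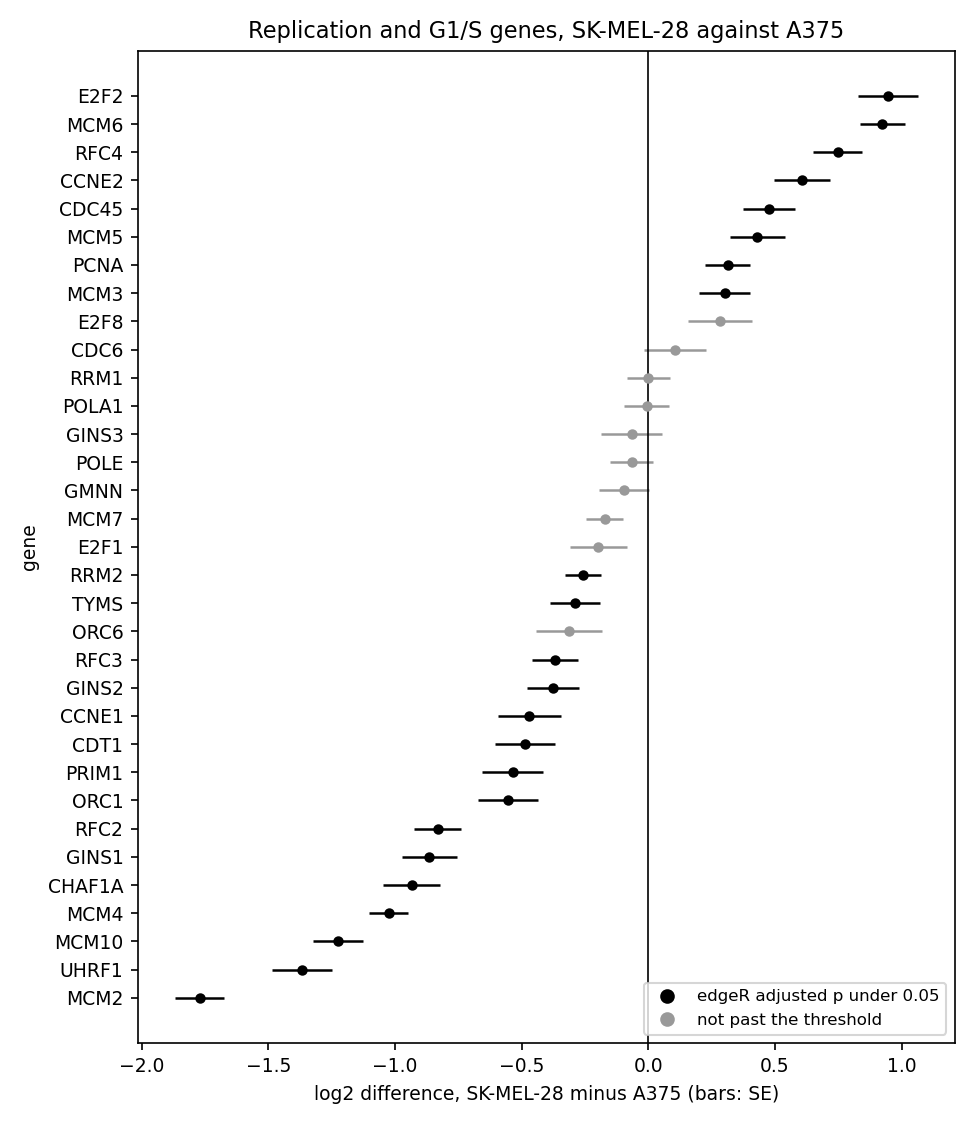
Log2 difference of SK-MEL-28 minus A375 for the 33 genes from the edgeR model over all 4 libraries, with bars for the SE, ordered by size. Black points passed an adjusted p of 0.05, from MCM2 at -1.77 to E2F2 at 0.94, and grey points did not.

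Promoters were searched for what the genes share. RefSeq promoters (GRCh38.p14, 250 bases before to 50 after a start) were matched for 29 of the 33, all but CCNE2, E2F8, MCM4 and MCM5. The E2F words TTTCCCGC, TTTCGCGC, TTTGCCGC and TTTGGCGC were sought on both strands, and TTTGGCGC can overlap TTTCGCGC of the other strand. At least 1 was present in 18 of the 29 genes (62.1%), against 718 of 10823 genes of the table with a promoter (6.63%). CCAAT, the word bound by NF-Y, was present in 20 of 29 (69.0%) against 43.2%. Of the 18 genes with an E2F word, GINS1 and GMNN fell and 16 did not pass. Their words are shown with those of MCM6 and E2F1, which did not pass, in capitals within 30 bases read in the direction of the gene. A single window is shown per gene. GINS1 holds its word on the opposite strand and MCM6 holds overlapping words, with a further overlapping pair outside the window. E2F1 also holds TTTGCCGC on the opposite strand, which the left edge of its window cuts and which is not in capitals.

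GINS1 promoter: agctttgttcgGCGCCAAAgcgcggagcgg
GMNN promoter: gctgggtcggtTTTGGCGCgctctcacttc
MCM6 promoter: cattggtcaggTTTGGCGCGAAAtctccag
E2F1 promoter: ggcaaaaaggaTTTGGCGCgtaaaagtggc

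These lie at chr20:25407667-25407696 (+), chr6:24775322-24775351 (+), chr2:135876515-135876544 (-) and chr20:33686387-33686416 (-). A match is a sequence, not a measured binding site. No source used here says whether reads were counted by strand, and 7 of the 33 genes share exon bases with a listed gene on the other strand (MCM2, MCM7, GINS2, PRIM1, RFC4, TYMS and CCNE2), so their counts are uncertain by that overlap. PCNA, RFC3, RRM2 and TYMS have annotated pseudogenes named after them that could take or give reads. For GINS1 and GMNN neither such an overlap nor a pseudogene so named was found, and pseudogenes under other names were not sought.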

How the data were processed

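The table holds whole-read counts per gene, which the authors made with fastp, HISAT2, StringTie and HTSeq, per the labels' protocols; hg19, DESeq2 and edgeR are named in the submitters' processing notes without a role. CPM and FPKM were computed by the authors from these counts (FPKM per a single gene length), and the deposited TPM were not used. Versions, annotation and strand are given by no source used here. Columns were mapped through library names.

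Counts were fitted with edgeR 4.0.16 (R 4.3.3) with TMM factors, the quasi-likelihood test, cell line and siRNA as terms (1 residual degree of freedom), on genes whose FPKM reached 1 in 2 or more libraries. SE is the log2 change over the root of F. The line pairs the libraries, since both of a pair stem from it. Log2 ratios within a line used a prior count of 2. The calls were tested on simulated data: of 50 genes each changed 1.5-fold and 2-fold, 76 and 96% were recovered over both lines among 13501 genes. Of 216 calls 30 were false, a larger share than the threshold of 0.05 allows. The changes were planted equal in both lines and only in genes above a set mean count. Recovery of weakly counted genes, or of changes that differ between the lines, was thus not measured. Words and overlaps were sought in GENCODE 29 (GRCh38), motifs in RefSeq promoters. Alternatives were DESeq2 1.42.0, limma 3.58.1 on log2 FPKM, other scalings, filters and prior counts.

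All 33 genes are named. In other lists, up to 4 genes per direction with the largest change are named, except 1 that is not reported here; MCMBP and HELLS (further carriers of the words) and GINS4 (the fourth GINS subunit) were chosen after their values were seen. Members, lists and words were chosen with earlier results of these data known.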

Additional observations from a re-analysis of the deposited data

Results flagged for a closer look

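In 5 of the 33 genes the log2 ratio of siLINC01291 to siNC had opposite signs in the 2 lines with counting intervals on opposite sides of 1, lower in A375 and higher in SK-MEL-28. Of 10988 genes expressed in both lines 3.32% met this rule in that direction and 6.98% in either. The difference of the log2 ratios (SK-MEL-28 minus A375) was 0.46 for ORC6, 0.44 for CDC6, 0.38 for ORC1, 0.34 for CHAF1A and 0.30 for MCM3. With 1 pair of libraries per line these differences were not tested, and the intervals cover counting error only.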

How the results depend on the processing

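Of the 33 genes, the 2 calls with siLINC01291 (GINS1 and GMNN) held at 2 with DESeq2's size factors in edgeR, DESeq2, no filter, an FPKM of at least 5 and, chosen after seeing the data, edgeR's bias-adjusted test. They became 0 with limma on log2(FPKM + 1) and on log2(FPKM + 0.1) (adjusted p 0.0896 and 0.0861) and 0 of 29 without the genes that hold a word, which removes both genes. The line is the block that pairs the libraries. With no replicate block 0 of the 33 (1 at an unadjusted p under 0.05), 0 further replication genes and 0 of all genes (51 unadjusted) were called. Between lines 15 rather than 23 of the 33 were then called, and 8601 rather than 9772 of all 13501 genes. Over all 13501 genes 121 calls became 302 with DESeq2, 6 and 0 with limma at a pseudocount of 1 and 0.1, and 57 with the bias-adjusted test. The filters changed the number of genes tested: 384 of 18175 were called with no filter and 32 of 7997 at an FPKM of at least 5. Between lines 6000 of 7997 were called at an FPKM of at least 5, against 9772 of 13501. The 2 further replication genes became 1 with DESeq2's size factors and 0 with limma at both pseudocounts, an FPKM of at least 5, no words and the bias-adjusted test. Leaving out GINS1 and GMNN, an alternative chosen after seeing the data, left 0 genes past 1.5-fold in each line. Leaving out a library was not run, since it leaves 0 residual degrees of freedom.

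Signs reversed only for log2 values near 0, and none of these reversed values was a call. With siLINC01291, ORC1 became -0.0014 with no filter, -0.0259 with no replicate block and -0.0118 without word genes, and GINS2 -0.0077 without word genes. With DESeq2's size factors, DESeq2, limma at a pseudocount of 1 and of 0.1 and an FPKM of at least 5, ORC6 became 0.0082, 0.0097, 0.0309, 0.0348 and 0.0160, RFC2 0.0087, 0.0087, 0.0314, 0.0327 and 0.0164, and CHAF1A 0.0005, 0.0021, 0.0238, 0.0280 and 0.0082. With limma at both pseudocounts MCM2 became 0.0002 and 0.0029 and RFC4 0.0140 and 0.0145. Between lines CDC6 became -0.0571 and -0.0597 with limma, POLA1 0.0220 with no filter, and RRM1 0.0044 with DESeq2's size factors and with DESeq2, 0.0277 with no filter and 0.0015 with no replicate block. The cause was not tested. The remaining single-gene values kept their sign.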
